A study of Mus musculus with 96 samples.

Results

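Dbp, Tef, Hlf and Nfil3 are the 4 genes described here, taken by symbol from the 22497 genes in the deposited tables of each genotype. Dbp, Tef and Hlf encode the PAR bZIP factors, leucine zipper proteins with a region rich in proline and acidic residues. They activate transcription from a DNA element called the D-box. Nfil3, also called E4BP4, encodes a related leucine zipper protein that binds the same element and represses. In the circadian clock the activator pair BMAL1 and CLOCK drives Dbp through E-box elements, while the receptors REV-ERB and ROR act on Nfil3, so that activators and repressor of the D-box are known to peak at opposite times of day in liver. In liver, kidney and brain the PAR bZIP factors control enzymes of drug and vitamin metabolism.

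Messenger RNA from back-skin epidermis was sequenced in 96 libraries from female C57BL/6 mice of 8 weeks, kept in constant darkness for about a week. EpiRE, BRE and RERE mice are Arntl stopFL/stopFL, an allele of the BMAL1 gene named for a floxed stop, which Cre is meant to remove. EpiRE mice carry K14Cre (tg/wt) without Syt10-Cre (wt/wt) and have Arntl restored in epidermis. BRE mice carry Syt10-Cre (tg/wt) without K14Cre (wt/wt) and have it restored in brain. RERE mice carry both transgenes, K14Cre as tg/wt and Syt10-Cre as tg/wt. WT mice have intact Arntl (wt/wt) and carry both transgenes too, K14Cre as wt/tg and Syt10-Cre as tg/wt. Each genotype was sampled at 6 circadian times (CT0, 4, 8, 12, 16 and 20, in hours) with 4 mice per time, which gives 24 libraries per genotype. K14Cre is driven by a keratin 14 promoter, which is active in basal cells of epidermis and of other stratified epithelia, and Syt10-Cre is active in the central clock of the brain and in some other neurons, so neither is limited to a single tissue.

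Levels are log2 RPKM (reads per kilobase and library size), and a difference of 1 on this scale is a doubling. Arntl itself averaged 4.16 in EpiRE, 3.88 in BRE, 3.89 in RERE and 3.88 in WT (BRE minus WT 0.01 ± 0.12, adjusted p = 0.979), so its level does not show a block in BRE epidermis and is no check of the genotypes. Libraries held 11.4 to 23.5 M reads (median 15.5 M) as recovered from the deposited values. Keratinocyte markers summed to 18894 to 27090 RPKM in the EpiRE libraries, 22473 to 27075 in BRE, 21637 to 26956 in RERE and 20638 to 27251 in WT, with all 8 listed markers present. T cell markers (4 of 5 in the tables) summed to 10.3 to 41.8 RPKM in EpiRE, 9.75 to 22.5 in BRE, 10.7 to 28.9 in RERE and 6.42 to 31.1 in WT. The 3 endothelial markers summed to at most 0.31 RPKM in any library and the 3 adipocyte markers to at most 0.55 RPKM. Sums reached 19.1 RPKM for red blood cell markers (in EpiRE), 9.22 for fibroblast markers (in BRE), 4.32 for muscle markers (in EpiRE) and 10.1 for melanocyte markers (in RERE). Over all libraries they ran between 105.5 and 278 for Langerhans cell, 98.4 and 290.3 for sebaceous gland, and 387 and 1254 for hair follicle markers. Whether other cell types had a part in the values below was not tested, and in bulk RNA fewer cells of a type and less RNA per cell cannot be told apart. Libraries EpiRE CT0 replicate 1, EpiRE CT8 replicate 1 and RERE CT0 replicate 2 stood apart from the rest of their genotype, more than 4 scaled median deviations below the median correlation, and results are given without them where a call changed. Values were tied to a sample and its CT by column name. In a second kind of deposited table the library codes do not follow CT order for EpiRE and BRE, so the rhythm, single-CT, spread and coupling results of these 2 genotypes depend on the CT in the column names being right, which was not tested.

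The members lie on 4 chromosomes of mm10. Dbp (ENSMUSG00000059824) spans 45705088 to 45710203 of chromosome 7, Tef (ENSMUSG00000022389) spans 81802421 to 81826863 of chromosome 15, Hlf (ENSMUSG00000003949) spans 90336536 to 90390895 of chromosome 11, and Nfil3 (ENSMUSG00000056749) spans 52967209 to 52981073 of chromosome 13. Dbp and Tef lie on the forward strand, Hlf and Nfil3 on the reverse. Exons of Dbp share 539 bases with Sphk2 on the opposite strand, and those of Tef share 193 bases with the antisense gene Gm17597. Use of strand in counting is not stated, so reads of these stretches may be mixed.

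Promoters of the 4 genes were read from RefSeq (GRCm38.p6), 250 bases before each annotated start, with 2 starts for Tef. The windows below show the clock elements that a search for exact letters found, since E-boxes and ROR elements are the known inputs of the clock to these genes. Letters searched on both strands were CACGTG (E-box, present in 6.02% of 32851 promoters of this length), TNGGTCA (core of the element bound by ROR and REV-ERB, 9.19%) and TTANGTAA (D-box, 2.06%). Capitals mark the matched letters, and each sequence runs 5′ to 3′ on the strand of the gene.
Tef, upstream start, E-box (chr15:81802534-81802563): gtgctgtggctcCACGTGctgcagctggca
Tef, downstream start, E-box (chr15:81811264-81811293): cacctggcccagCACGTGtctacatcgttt
Tef, downstream start, ROR core (chr15:81811184-81811213): agggacgcgacTGACCAAaaaagaacaggg
Nfil3, ROR core (chr13:52981040-52981069): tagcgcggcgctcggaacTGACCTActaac
The E-boxes began at -127 and -138 from the upstream and downstream starts of Tef. The ROR core lay on the opposite strand, so it reads TGACCNA here, and it began at -219 in the downstream promoter of Tef and at -12 in Nfil3. All 4 windows lie inside the annotated genes, after the first annotated base, and the downstream promoter of Tef holds no annotated exon. The promoters of Dbp and Hlf held none of the 3 motifs and no promoter held a D-box, which says only that these letters are not in these windows. The downstream promoter of Tef carries both elements, and its 250 bases (chr15:81811164-81811413, forward strand, matches in capitals) show how they are spaced.
Tef, downstream promoter: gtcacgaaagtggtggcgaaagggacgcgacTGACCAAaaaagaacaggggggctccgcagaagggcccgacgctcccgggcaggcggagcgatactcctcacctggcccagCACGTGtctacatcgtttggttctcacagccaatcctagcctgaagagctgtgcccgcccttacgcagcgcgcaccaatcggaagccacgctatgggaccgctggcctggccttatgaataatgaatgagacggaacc

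The question of the series is which rhythms of the epidermis need a clock in the tissue itself, in the brain, or in both. All 4 members were rhythmic in RERE and in WT, and none passed in EpiRE or BRE (limma's moderated F test of a 24 h cosine, adjusted p under 0.05 over all genes). Over all genes tested, 0% were called in EpiRE, 1.14% in BRE, 19.4% in RERE and 33.1% in WT, so the members' count of 4 of 4 in RERE and WT is read against these shares, and in EpiRE the count of 0 is that of all genes. In EpiRE, 1397 of 11061 genes had an unadjusted p under 0.05, among them Dbp (0.0454), Hlf (0.0382) and Nfil3 (0.0497) but not Tef (0.0698). In BRE, 2071 of 10970 genes did, and no member was among them (lowest 0.107, for Dbp). Limma-voom on recovered reads also called no member in EpiRE or BRE.

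**Figure D1:**
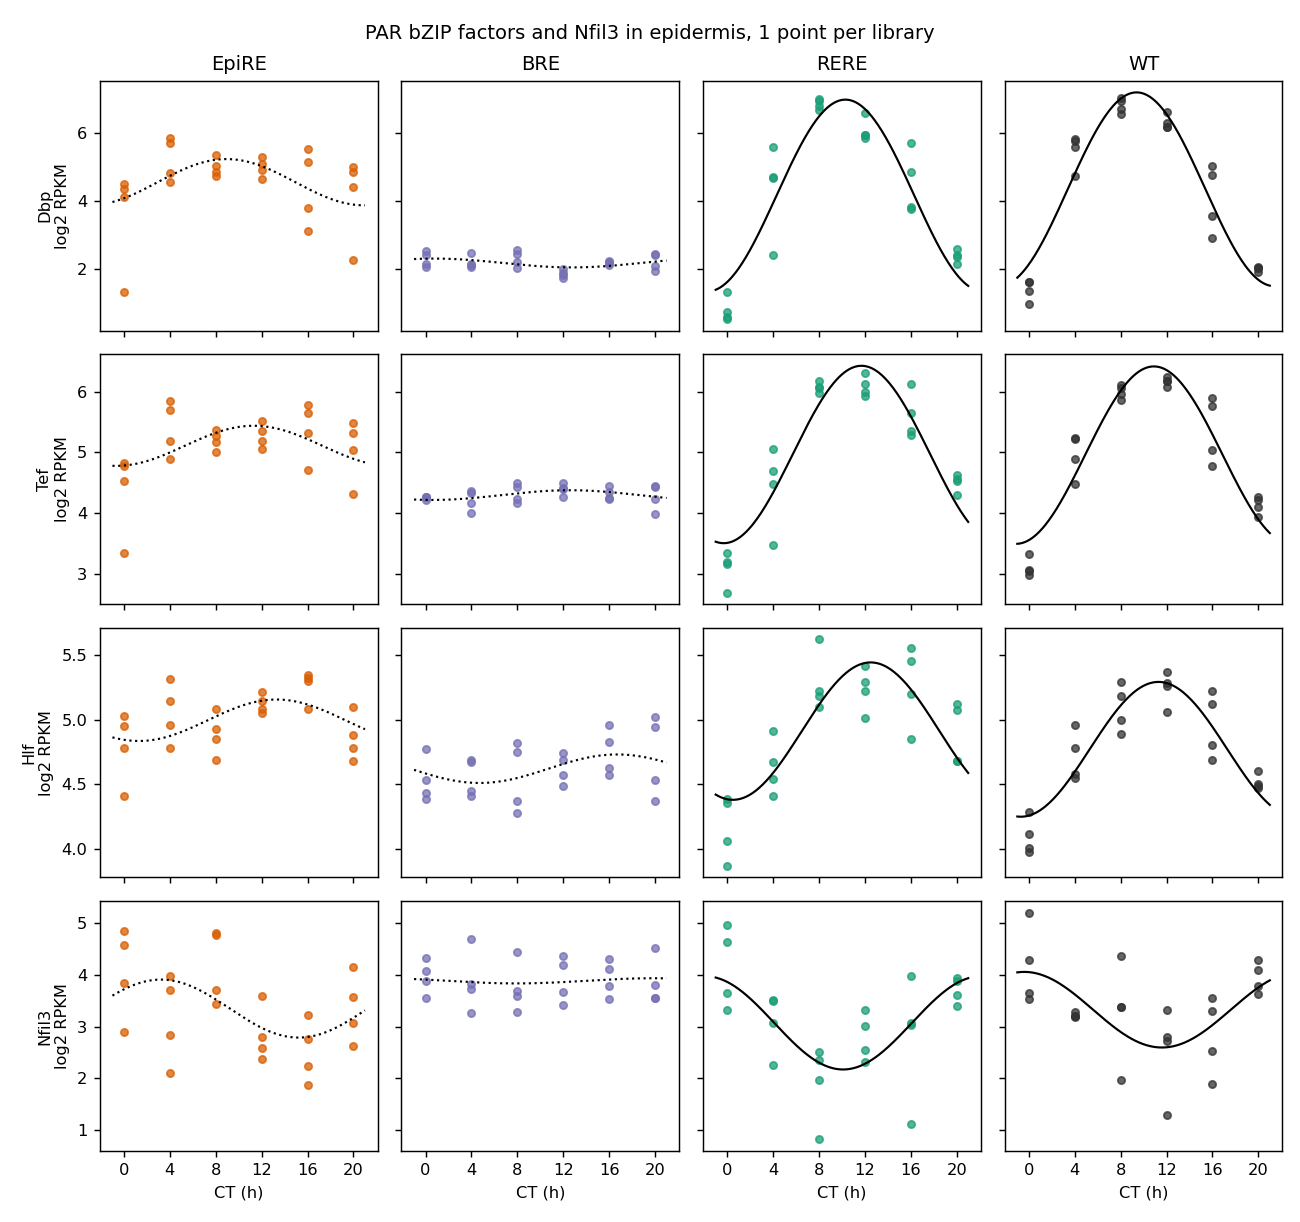
Log2 RPKM of each member (rows) against circadian time in hours in EpiRE, BRE, RERE and WT (columns), 1 point per library; curves are fitted 24 h cosines, solid where the adjusted p was under 0.05 and dotted elsewhere. Dbp spans 0.53 to 7.01 in RERE and 0.99 to 7.04 in WT, and 1.73 to 2.56 in BRE.

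Dbp, the member known for the deepest daily swing in liver, also had the largest amplitude of the 4 here. At CT0 the 4 EpiRE libraries stood at 4.13, 4.51, 1.34 and 4.35 log2 RPKM, the BRE libraries at 2.06, 2.41, 2.16 and 2.53, the RERE libraries at 1.34, 0.53, 0.61 and 0.74, and the WT libraries at 1.35, 1.62, 0.99 and 1.62. BRE lay above every WT library at this time, EpiRE did so in 3 of 4 libraries, and RERE lay below the WT range in 3 of 4. At CT8 the EpiRE libraries stood at 5.36, 4.73, 5.04 and 4.86, the BRE libraries at 2.46, 2.56, 2.03 and 2.22, the RERE libraries at 7.01, 6.67, 6.94 and 6.80, and the WT libraries at 6.72, 6.57, 6.94 and 7.04. Here RERE and WT overlapped, EpiRE lay below both, and BRE lay lowest. In RPKM, Dbp changed 3.15-fold between its lowest and highest CT mean in EpiRE, 1.37-fold in BRE, 66.2-fold in RERE and 43.0-fold in WT. The fitted amplitude was 0.68 ± 0.26 in EpiRE (SE; adjusted p = 0.386), 0.13 ± 0.06 in BRE (adjusted p = 0.368), 2.82 ± 0.23 in RERE (adjusted p = 2.64e-08) and 2.85 ± 0.18 in WT (adjusted p = 1.26e-10).

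Tef, a close relative of Dbp first described in pituitary cells, followed with a smaller swing. At CT0 Tef stood at 4.52, 4.83, 3.35 and 4.77 in EpiRE, at 4.26, 4.26, 4.21 and 4.26 in BRE, at 3.34, 2.69, 3.20 and 3.16 in RERE, and at 3.33, 3.04, 3.07 and 2.98 in WT. All EpiRE and BRE libraries exceeded the WT range, whereas RERE overlapped it. At CT12 the values were 5.05, 5.18, 5.35 and 5.51 in EpiRE, 4.5, 4.41, 4.39 and 4.26 in BRE, 5.99, 6.12, 6.30 and 5.92 in RERE, and 6.17, 6.18, 6.08 and 6.24 in WT. The order was BRE lowest, then EpiRE, with RERE and WT overlapping at the top. Tef amplitude was 0.33 ± 0.13 in EpiRE (adjusted p = 0.435), 0.08 ± 0.04 in BRE (adjusted p = 0.428), 1.46 ± 0.12 in RERE (adjusted p = 2.92e-08) and 1.46 ± 0.10 in WT (adjusted p = 1.14e-09).

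Hlf, known for its part in blood stem cells and in liver metabolism, had the smallest amplitude of the activators in EpiRE, RERE and WT, and in BRE Tef had a smaller one (0.08, against 0.11 for Hlf). At CT0 it stood at 5.03, 4.78, 4.41 and 4.95 in EpiRE, at 4.77, 4.53, 4.39 and 4.43 in BRE, at 4.39, 4.06, 3.87 and 4.36 in RERE, and at 3.98, 4.12, 4.29 and 4.01 in WT. All EpiRE and BRE libraries lay above the WT range, and RERE spread across it. At CT12 the values were 5.21, 5.08, 5.05 and 5.14 in EpiRE, 4.49, 4.57, 4.69 and 4.74 in BRE, 5.22, 5.29, 5.41 and 5.01 in RERE, and 5.26, 5.37, 5.06 and 5.28 in WT. Only BRE lay clear of the WT range at this time. Between its lowest and highest CT mean Hlf changed 1.38-fold in EpiRE, 1.16-fold in BRE, 2.16-fold in RERE and 2.21-fold in WT. Its amplitude was 0.16 ± 0.06 in EpiRE (adjusted p = 0.37), 0.11 ± 0.05 in BRE (adjusted p = 0.447), 0.53 ± 0.08 in RERE (adjusted p = 0.000113) and 0.52 ± 0.05 in WT (adjusted p = 2.83e-07).

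Nfil3, the repressor, peaked 9.80 to 14.4 h before the activators in RERE and WT, the genotypes in which its rhythm was called. At CT0 it stood at 4.85, 3.84, 4.58 and 2.89 in EpiRE, at 3.88, 4.08, 4.33 and 3.56 in BRE, at 4.97, 4.64, 3.65 and 3.31 in RERE, and at 3.64, 4.28, 5.2 and 3.53 in WT. The 4 genotypes overlapped at this time, which is near the WT peak of Nfil3. At CT12 the values were 2.37, 3.58, 2.59 and 2.79 in EpiRE, 3.42, 3.67, 4.18 and 4.37 in BRE, 3.31, 3.01, 2.55 and 2.31 in RERE, and 2.79, 1.29, 3.32 and 2.72 in WT. BRE alone lay above the whole WT range here. Nfil3 amplitude was 0.56 ± 0.22 in EpiRE (adjusted p = 0.396), 0.05 ± 0.11 in BRE (adjusted p = 0.951), 0.90 ± 0.20 in RERE (adjusted p = 0.00846) and 0.73 ± 0.19 in WT (adjusted p = 0.0144). The Nfil3 calls were less firm than those of the activators: the adjusted p was 0.0846 and 0.0564 in RERE without replicates 3 and 4, 0.0566 and 0.144 in WT without replicates 1 and 2, and 0.0522 in WT with CT as a factor.

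**Figure D2:**
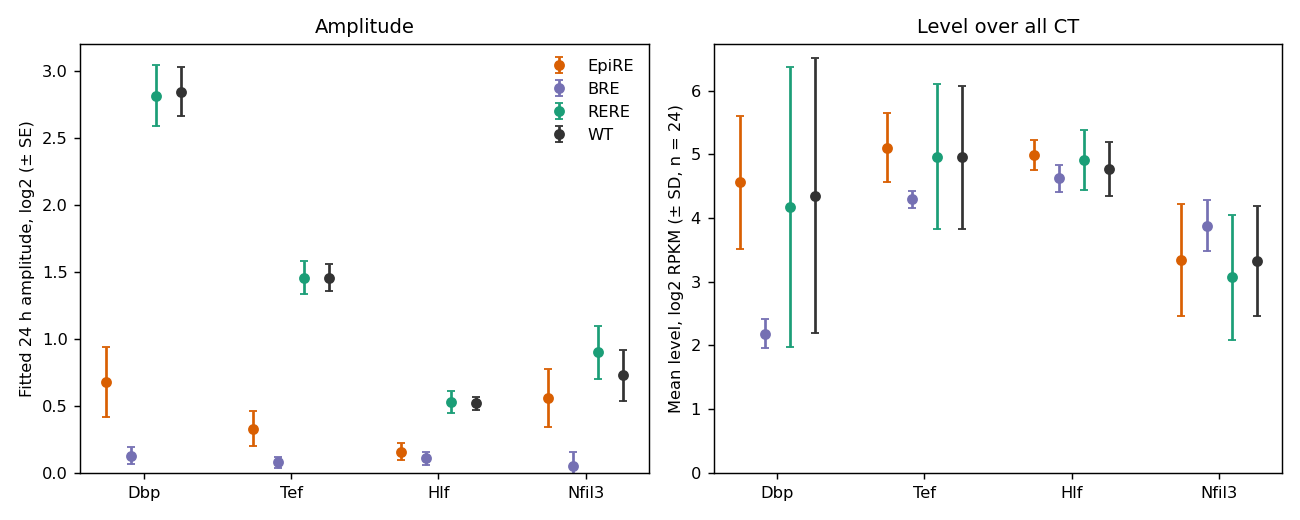
Left, fitted 24 h amplitude of each member on the log2 scale with its SE; right, mean log2 RPKM over all CT with the SD of 24 libraries; EpiRE, BRE, RERE and WT from left to right within a gene. Amplitudes of Dbp are 2.82 in RERE and 2.85 in WT, above 0.68 in EpiRE and 0.13 in BRE, and the level of Dbp is lowest in BRE (2.18).

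Peak times kept the same order in RERE and WT, with Dbp first, then Tef, then Hlf. Dbp peaked at CT 10.3 ± 0.31 in RERE and CT 9.39 ± 0.24 in WT, Tef at CT 11.7 ± 0.31 in RERE and CT 10.9 ± 0.27 in WT, and Hlf at CT 12.5 ± 0.55 in RERE and CT 11.3 ± 0.37 in WT. Nfil3 peaked at CT 22.1 ± 0.85 in RERE and CT 23.6 ± 0.98 in WT. Dbp led Tef by 1.43 ± 0.18 h in RERE and 1.49 ± 0.12 h in WT (jackknife SE over 24 libraries). Hlf followed Tef by 0.80 ± 0.47 h in RERE and 0.41 ± 0.23 h in WT, which is less than 2 SE in both. The peak of Dbp lay 12.2 h after that of Nfil3 in RERE (± 0.92) and 9.80 h after it in WT (± 0.92). For Tef this gap was 13.6 ± 0.95 h in RERE and 11.3 ± 0.94 h in WT. For Hlf it was 14.4 ± 0.97 h in RERE and 11.7 ± 0.90 h in WT. Fitted RERE peaks followed those of WT by 0.88 ± 0.39 h for Dbp, 0.81 ± 0.41 h for Tef and 1.21 ± 0.66 h for Hlf, while that of Nfil3 preceded it (-1.51 ± 1.3 h). The interaction test given below, which takes in peak time, called no member between RERE and WT. Its unadjusted p was 0.11 for Dbp, 0.179 for Tef, 0.219 for Hlf and 0.455 for Nfil3, so a shift in peak time was not shown.

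Whether a rhythm differed between genotypes was tested as the interaction of genotype with the cosine and sine. Its p-values cover amplitude and peak time together and do not test the amplitude difference alone. The SE of an amplitude difference combines those of the separate fits of the 2 genotypes. Against WT, the rhythm of Dbp was smaller in EpiRE by 2.17 ± 0.31 (0.68 in EpiRE, 2.85 in WT; adjusted p = 0.000194), that of Tef by 1.14 ± 0.17 (adjusted p = 0.000278) and that of Hlf by 0.37 ± 0.08 (adjusted p = 0.00922), and these 3 of 4 members stood beside 1.57% of all genes. Nfil3 did not pass in EpiRE against WT (amplitude difference -0.17 ± 0.29, adjusted p = 0.448). The Hlf call was lost without replicate 1, 2 or 4 (adjusted p = 0.0652, 0.173 and 0.187).

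In BRE against WT the same 3 members passed, with 5.69% of all genes called. The amplitude difference was -2.71 ± 0.19 for Dbp (0.13 in BRE, 2.85 in WT; adjusted p = 8.7e-15), -1.39 ± 0.11 for Tef (adjusted p = 5.19e-12) and -0.42 ± 0.07 for Hlf (adjusted p = 2.23e-05). For Nfil3 it was -0.68 ± 0.22 with an adjusted p of 0.129, so a loss of the Nfil3 rhythm in BRE was not shown by this test although its amplitude there was 0.05.

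Between RERE and WT no member was called for a difference in rhythm, with 0% of 11051 genes called by limma. An unadjusted p under 0.05 was held by 837 genes, none of them a member (0.11 for Dbp, 0.179 for Tef, 0.219 for Hlf and 0.455 for Nfil3). The amplitude difference was -0.02 ± 0.29 for Dbp and 0.18 ± 0.28 for Nfil3, and limma-voom called no member either. Between EpiRE and BRE no member was called for a difference in rhythm, with 0% of 11002 genes called and 941 at an unadjusted p under 0.05. A miss of the threshold does not show equal rhythms. The amplitude difference was 0.55 ± 0.26 for Dbp, 0.25 ± 0.14 for Tef, 0.05 ± 0.08 for Hlf and 0.51 ± 0.24 for Nfil3. Dbp was the member with the lowest unadjusted p there (0.0286; amplitude 0.68 in EpiRE and 0.13 in BRE).

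Between the reconstituted genotypes, RERE exceeded EpiRE in the amplitude of Dbp by 2.14 ± 0.34 (adjusted p = 0.00062) and of Tef by 1.13 ± 0.18 (adjusted p = 0.00075), beside 1.05% of all genes called. Hlf had a difference of 0.37 ± 0.10 (adjusted p = 0.0947), which passed with a single fit of 96 libraries (0.0236) and with CT as a factor (0.0238). Without replicate 2 neither Dbp (adjusted p = 0.104) nor Tef (0.122) passed, and without replicate 4 Dbp did not (0.0528). RERE exceeded BRE in Dbp by 2.69 ± 0.24 (adjusted p = 2.17e-11), in Tef by 1.38 ± 0.13 (7.5e-10) and in Hlf by 0.42 ± 0.09 (0.00242), beside 4.19% of all genes. The Hlf call was lost without replicate 3 (adjusted p = 0.0609). Nfil3 did not pass in that contrast (0.85 ± 0.23, adjusted p = 0.0726). It passed with limma-voom (0.0446) and without replicate 2 (0.0377).

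The mean level over the day set BRE apart from the 3 other genotypes. Dbp averaged 4.56 ± 1.05 in EpiRE, 2.18 ± 0.23 in BRE, 4.17 ± 2.2 in RERE and 4.35 ± 2.15 in WT (SD, n = 24 each). In descending order these are EpiRE, WT, RERE and BRE, and the neighbours EpiRE and WT (difference 0.21 ± 0.30, adjusted p = 0.921) and RERE and WT (-0.18 ± 0.18, adjusted p = 0.739) were within the spread. Dbp was 4.5-fold lower in BRE than in WT (log2 difference -2.17 ± 0.33, limma adjusted p = 1.44e-06) and 5.2-fold higher in EpiRE than in BRE (2.38 ± 0.21, adjusted p = 2.16e-12). All 24 BRE libraries fell below the WT mean of Dbp, as did 5 of 24 EpiRE and 11 of 24 RERE libraries.

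Tef averaged 5.11 ± 0.54 in EpiRE, 4.30 ± 0.14 in BRE, 4.96 ± 1.14 in RERE and 4.95 ± 1.12 in WT. BRE was lower than WT by 0.66 ± 0.16 (1.58-fold, adjusted p = 0.00147), and the other 3 genotypes did not differ among themselves beyond their spread. Hlf averaged 5.0 ± 0.23 in EpiRE, 4.62 ± 0.20 in BRE, 4.91 ± 0.47 in RERE and 4.77 ± 0.42 in WT. Its level in BRE was below EpiRE (EpiRE minus BRE 0.37 ± 0.06, adjusted p = 1.19e-06) and RERE (RERE minus BRE 0.29 ± 0.08, adjusted p = 0.00638), but not below WT by the test (-0.15 ± 0.07, adjusted p = 0.119). Hlf in EpiRE exceeded WT by 0.23 ± 0.07 with an adjusted p of 0.0519, which became 0.0494 without the libraries that stood apart and 0.0451 with limma-voom.

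Nfil3 averaged 3.35 ± 0.88 in EpiRE, 3.88 ± 0.40 in BRE, 3.07 ± 0.98 in RERE and 3.33 ± 0.86 in WT. It was higher in BRE than in WT by 0.56 ± 0.18 (1.47-fold, adjusted p = 0.011) and lower than in BRE both in RERE (RERE minus BRE -0.81 ± 0.19, adjusted p = 0.000937) and in EpiRE (EpiRE minus BRE -0.54 ± 0.18, adjusted p = 0.0188). The contrast of BRE with WT missed the threshold without replicate 1, 2 or 4 (adjusted p = 0.0566, 0.0798 and 0.0526), and that of EpiRE with BRE without replicate 3 or 4 (0.075 and 0.144). Level calls were common when BRE was compared: 36.9% of genes were called in BRE against WT, 27.5% in RERE against BRE and 34% in EpiRE against BRE, so 3, 4 and 4 of 4 members there are read against these shares. By direction, 17.4% of genes were higher and 10.1% lower in RERE than in BRE, where 3 members were higher and 1 lower. In EpiRE against BRE, 22.9% were higher and 11.1% lower, again with 3 members higher and 1 lower. With RERE against WT (2.14% called, 0.787% higher and 1.35% lower), EpiRE against WT (2.23%) and RERE against EpiRE (0.00906%), no member was called by limma, with unadjusted p under 0.05 for Hlf in EpiRE against WT (0.00116) and in RERE against WT (0.0234).

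**Figure D3:**
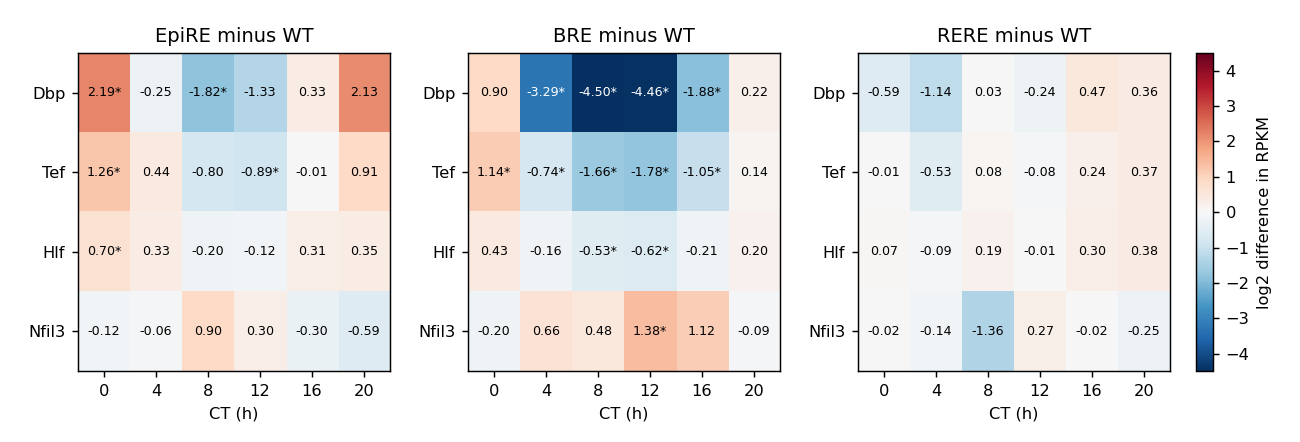
Difference in mean log2 RPKM from WT at each circadian time (columns, hours) for each member (rows) in EpiRE, BRE and RERE, n = 4 libraries per group; red is higher and blue lower than WT, and asterisks mark an adjusted p under 0.05. Dbp in BRE is lower by 4.5 at CT8 and by 4.46 at CT12, Dbp in EpiRE is higher by 2.19 at CT0, and RERE has no asterisk.

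The level at single times showed where in the day the genotypes parted from WT. In BRE, Dbp was lower at CT4 (-3.29 ± 0.45; 5.09% of genes called), CT8 (-4.5 ± 0.45; 9.77%), CT12 (-4.46 ± 0.45; 11.8%) and CT16 (-1.88 ± 0.45; 5.75%), the largest of these a 22.7-fold difference. It did not pass at CT0 (0.90 ± 0.45, adjusted p = 0.297) or CT20 (0.22 ± 0.45, adjusted p = 0.918). All 24 BRE libraries lay between the lowest and the highest CT mean of WT (1.39 and 6.82). Tef in BRE was higher at CT0 (1.14 ± 0.23, adjusted p = 0.00165; 1.77% called, 1.02% higher) and lower at CT4 (-0.74), CT8 (-1.66), CT12 (-1.78) and CT16 (-1.05), each with an SE of 0.23. Its CT4 call (adjusted p = 0.0375) was lost under median-of-ratios scaling (0.0511), with no filter (0.0584) and without replicate 2, 3 or 4 (0.243, 0.0825 and 0.181). Hlf in BRE was lower at CT8 (-0.53 ± 0.14, adjusted p = 0.00783) and CT12 (-0.62 ± 0.14, adjusted p = 0.00124). The Hlf call at CT8 was lost without replicate 3 or 4 (adjusted p = 0.118 and 0.0566), and that of Tef at CT0 without replicate 2 (0.0516). At CT16 the Dbp call was lost without replicate 1 or 2 (adjusted p = 0.0572 and 0.12) and with limma-voom (0.0564). The Tef call at CT16 was lost without replicate 2 (0.0705). Nfil3 in BRE was higher at CT12 (1.38 ± 0.46, adjusted p = 0.0335), the time of its WT trough. This Nfil3 call was lost with limma-voom (adjusted p = 0.0515), with no filter on low values (0.0512) and without replicate 2, 3 or 4 (0.266, 0.0601 and 0.156).

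In EpiRE the 3 activators were higher than WT at CT0, the WT trough, and Dbp and Tef were lower at a time near the WT peak. At CT0, Dbp was higher by 2.19 ± 0.45 (4.57-fold, adjusted p = 0.0258), Tef by 1.26 ± 0.23 (adjusted p = 0.00382) and Hlf by 0.70 ± 0.14 (adjusted p = 0.0256), beside 0.0453% of genes called (5 of 11028; 0.0363% higher and 0.00907% lower). Dbp was lower at CT8 (-1.82 ± 0.45, adjusted p = 0.0416; 0.354% called) and Tef at CT12 (-0.89 ± 0.23, adjusted p = 0.024; 1.39% called, 0.58% lower), while Hlf did not pass at CT8 (-0.20, adjusted p = 0.806) or CT12 (-0.12, adjusted p = 0.785). No member was called at CT4 (0.635% of genes). At CT20 Dbp differed by 2.13 ± 0.45 and missed the threshold (adjusted p = 0.0671; 0.00907% called). Nfil3 passed at no CT in EpiRE, with differences from -0.59 to 0.90. These 5 calls in EpiRE were sensitive to the libraries used: none was called without replicate 2 or without replicate 4. Without the libraries that stood apart, EpiRE CT0 replicate 1 among them, all 3 calls at CT0 were lost. Their limma adjusted p was then 0.291 for Dbp, 0.0525 for Tef and 0.291 for Hlf, and the 2 calls left were Dbp at CT8 and Tef at CT12. When EpiRE and WT were fitted alone, 1 was called. The CT0 difference of Dbp was not called by limma-voom either (2.17, adjusted p = 0.296), and its adjusted p over the alternatives ran between 7.21e-05 and 0.52.

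RERE had no member called at any CT, with 0 to 0.0272% of genes called. Its largest differences from WT were -1.36 ± 0.46 for Nfil3 at CT8 (unadjusted p = 0.0038, adjusted p = 0.577) and -1.14 ± 0.45 for Dbp at CT4 (unadjusted p = 0.0143, adjusted p = 0.233). At CT4 Dbp stood at 5.59, 4.69, 2.41 and 4.70 in RERE and at 4.74, 5.78, 5.83 and 5.61 in WT, and replicate 3 of RERE lay below all others. At CT8 Nfil3 stood at 0.82, 2.51, 1.96 and 2.35 in RERE and at 1.97, 3.37, 4.37 and 3.38 in WT, and these groups overlapped. When replicate 1 was left out, 2 member differences in RERE were called, that of Dbp at CT4 among them (-1.80, limma adjusted p = 0.039). The same setting called 240 genes at CT4 in RERE against WT, where the main fit called 0 of 11028.

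**Figure D4:**
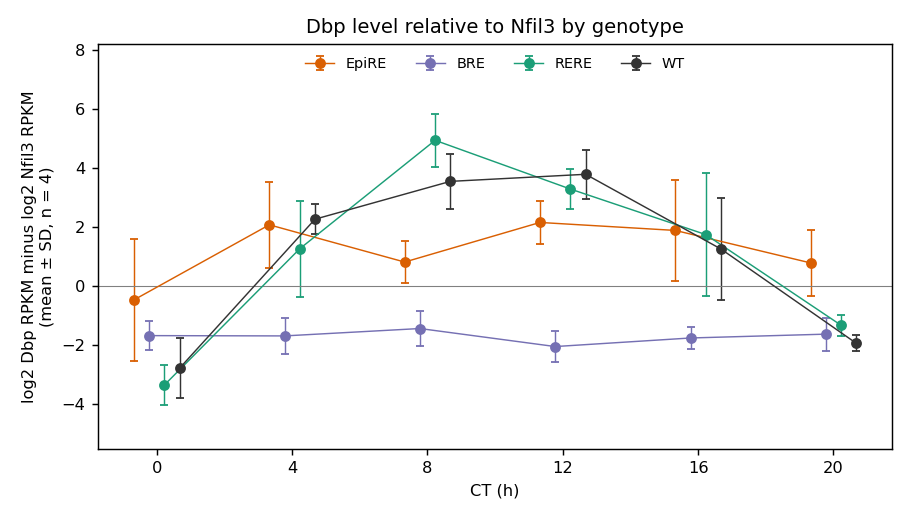
Log2 RPKM of Dbp minus log2 RPKM of Nfil3 against circadian time in hours, mean and SD of 4 libraries, for EpiRE, BRE, RERE and WT. BRE stays between -2.04 and -1.43 at all CT, whereas RERE runs between -3.34 and 4.94 and WT between -2.77 and 3.79.

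The level of Dbp relative to Nfil3, an activator and the repressor of the same element, showed the change of balance over the day. Per length, Nfil3 exceeded Dbp in all 24 BRE libraries, with a log2 difference of Dbp minus Nfil3 of -1.70 ± 0.51 (SD, n = 24; -2.65 to -0.83). In EpiRE the mean was 1.21 ± 1.56 and single libraries lay between -3.24 and 3.61. In RERE the CT means crossed zero, from -3.34 ± 0.67 at CT0 through 4.94 ± 0.90 at CT8 to -1.32 ± 0.36 at CT20, and in WT from -2.77 ± 1.01 at CT0 through 3.55 ± 0.92 at CT8 and 3.79 ± 0.83 at CT12 to -1.93 ± 0.27 at CT20. Averaged over the day the balance was near 1 in the 3 genotypes other than BRE (1.21 in EpiRE, 1.10 in RERE and 1.03 in WT). RNA levels do not give the levels of the proteins.

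Animals of a single time differed from each other more in EpiRE than in BRE for 3 of 4 members. The mean absolute deviation of Dbp from the median of its CT was 0.59 in EpiRE, 0.13 in BRE, 0.37 in RERE and 0.29 in WT on the log2 scale. The difference between EpiRE and BRE passed a permutation test (two-sided, 100000 resamples, adjusted over 24 tests) for Dbp (0.46, adjusted p = 0.00072), Tef (0.3 in EpiRE, 0.1 in BRE; adjusted p = 0.00156) and Nfil3 (0.55 in EpiRE, 0.31 in BRE; adjusted p = 0.0487). EpiRE did not pass against WT for any member (Dbp adjusted p = 0.183), and no other contrast passed. The test treated the deviations of single animals as independent, although the middle 2 of 4 animals deviate equally from their median. Adjusted p-values near the threshold are therefore uncertain. The deviation of Hlf was 0.12 in EpiRE, 0.16 in BRE, 0.18 in RERE and 0.12 in WT. Leaving out any of the 4 replicate numbers left 0 calls in EpiRE against BRE, and leaving out the libraries that stood apart left 2 (Dbp and Tef). The Nfil3 call was also lost under median-of-ratios scaling (adjusted p = 0.0794) and on the log2(RPKM + 1) scale (0.0778).

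Members also varied together from animal to animal within a time. After subtraction of CT means, Dbp and Tef correlated in EpiRE (Pearson r = 0.953, permutation adjusted p = 0.00012; Spearman rho = 0.931, adjusted p = 0.00012; r = 0.916 without the 2 libraries farthest from the median of Dbp), in BRE (r = 0.708, adjusted p = 0.0163; rho = 0.714, adjusted p = 0.0122; r = 0.691 without 2), in RERE (r = 0.951, adjusted p = 0.00012; rho = 0.869, adjusted p = 0.00012; r = 0.881 without 2) and in WT (r = 0.868, adjusted p = 0.0169; rho = 0.646, adjusted p = 0.049; r = 0.758 without 2), each over 24 libraries. Both genes come from the same library and share its scaling. With any replicate number left out, Dbp and Tef still passed in EpiRE and RERE. In BRE the pair was lost without replicate 1, 2 or 4 (permutation adjusted p = 0.0595, 0.0523 and 0.0581). In WT it was lost without replicate 2, 3 or 4 (0.0879, 0.174 and 0.131). The EpiRE library with the lowest Dbp at CT0 (1.34) also had the lowest Tef (3.35) and Hlf (4.41) of its group.

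**Figure D5:**
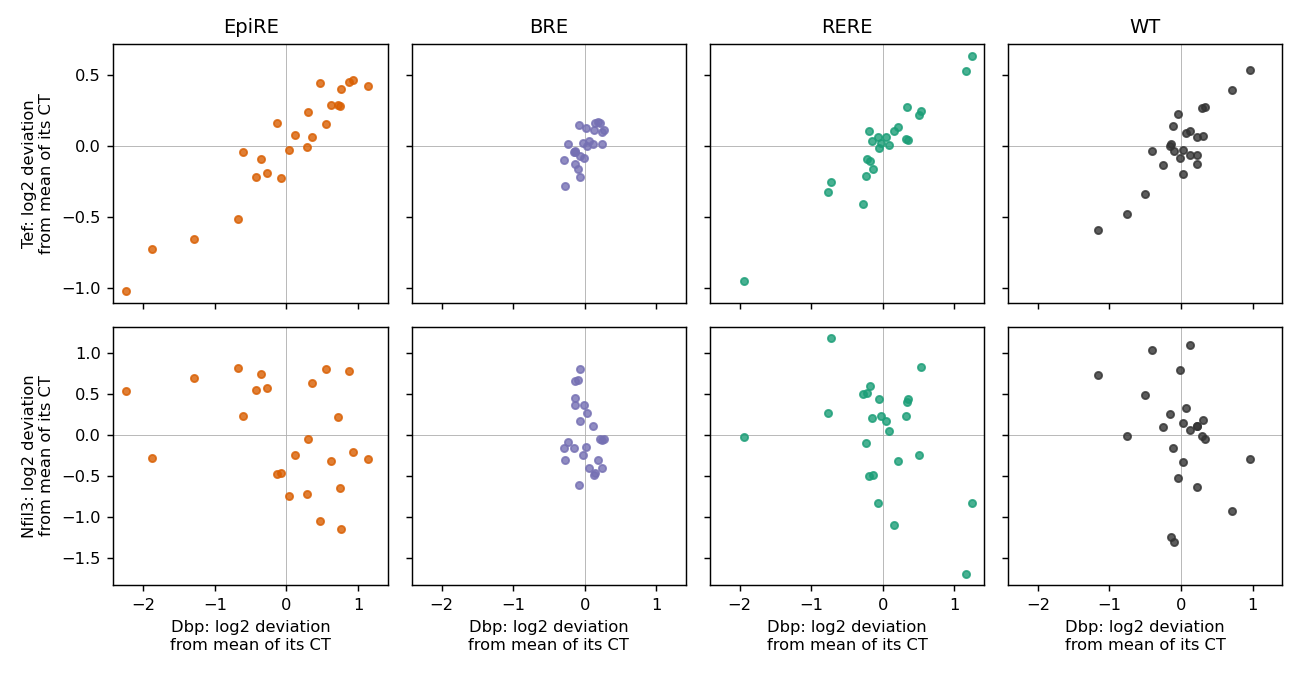
Deviation of each library from the mean of its CT on the log2 scale, Tef (top) and Nfil3 (bottom) against Dbp, for EpiRE, BRE, RERE and WT from left to right, 24 points each. Tef rises with Dbp in all panels (r from 0.708 to 0.953), and the spread of Dbp is narrowest in BRE.

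Hlf was coupled to Tef in all 4 genotypes, with r of 0.71 in EpiRE (adjusted p = 0.0163), 0.655 in BRE (0.04), 0.513 in RERE (0.0455) and 0.67 in WT (0.0469). Without the 2 libraries farthest from the median of Tef these were 0.554, 0.554, 0.66 and 0.508. The calls of Hlf with Tef depended on the libraries used. In EpiRE and RERE they were lost whichever of the 4 replicate numbers was left out (permutation adjusted p from 0.0528 and 0.0595 up to 0.174). In BRE and WT they were lost without replicate 2, 3 or 4 (0.0742 to 0.188 in BRE, 0.141 to 0.194 in WT). Hlf and Dbp passed in EpiRE (r = 0.679, adjusted p = 0.0163) and RERE (r = 0.532, adjusted p = 0.0453) and not in BRE (0.535, adjusted p = 0.0807) or WT (0.543, adjusted p = 0.172). These calls were lost without replicate 1, 2 or 3 in EpiRE and without replicate 2, 3 or 4 in RERE. Nfil3 had a negative r with every activator in every genotype, between -0.591 and -0.255, of which 2 of 12 passed: Hlf in EpiRE (r = -0.591, adjusted p = 0.0453) and Tef in BRE (r = -0.576, adjusted p = 0.0453). Neither pair passed under median-of-ratios scaling (adjusted p = 0.0983 in EpiRE and 0.197 in BRE) or relative to the library median (r = -0.504 and adjusted p = 0.1 in EpiRE, r = -0.346 and adjusted p = 0.241 in BRE), so no pair with Nfil3 was called there. Of the 24 tests, 12 passed, 4 in EpiRE, 3 in BRE, 3 in RERE and 2 in WT. Relative to the library median, 3 passed in EpiRE, 2 in BRE, 1 in RERE and 1 in WT. Tef and Hlf then no longer passed in RERE (r = 0.479, permutation adjusted p = 0.0621) or WT (r = 0.628, adjusted p = 0.0605). Dbp and Hlf no longer passed in RERE (r = 0.488, adjusted p = 0.0605), so Dbp and Tef were the only pair left in RERE and in WT.

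The other genes of the D-box and clock loop were described from lists of known members. The D-box clock genes Per1, Per2, Per3, Cry1, Nr1d1, Nr1d2 and Rora, repressors and receptors of the loop, were called rhythmic in 0 of 7 cases in EpiRE, 1 in BRE (Per1, amplitude 0.66 ± 0.13), 7 in RERE and 7 in WT, beside 0%, 1.14%, 19.4% and 33.1% of all genes. Their median amplitude was 0.303 in EpiRE, 0.119 in BRE, 1.2 in RERE and 1.31 in WT, beside 0.074, 0.0717, 0.0991 and 0.119 over all genes tested in the same order. Per2 reached 2.87 ± 0.24 in RERE and 2.61 ± 0.20 in WT, Nr1d1 1.87 ± 0.10 in RERE and 2.15 ± 0.11 in WT, and Per3 1.84 ± 0.12 in RERE and 1.78 ± 0.11 in WT. Dbp, at 2.82 in RERE and 2.85 in WT, lay beside Per2. Of these 7 genes, 5 had a smaller rhythm in EpiRE than in WT (1.57% of all genes called) and 5 in BRE than in WT (5.69%). Between RERE and WT, 0 were called (0%).

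E-box targets of BMAL1 and CLOCK share 5 genes with that list (Per1, Per2, Per3, Nr1d1 and Nr1d2) and add Bhlhe40, Ciart and Usp2 among 8 tested of 9. They were called in 0 of 8 in EpiRE, 1 of 7 tested in BRE, 6 of 8 in RERE and 7 of 8 in WT, beside the same shares of all genes (0%, 1.14%, 19.4% and 33.1%). Their level in BRE against WT was lower in 6 of 8 and higher in 0 (median difference -1.29, all genes -0.0455), where 24.4% of genes were lower. Dbp (-2.17) lay between Nr1d1 (-3.41) and Nr1d2 (-2.56) on the lower side and Per3 (-1.92) and Ciart (-1.5) on the other. The 3 activators of the loop, Arntl, Clock and Npas2, were all rhythmic in RERE and WT and in neither EpiRE nor BRE. Of these, 2 of 3 were higher in BRE than in WT (median 0.316), beside 12.5% of all genes. Npas2 differed by 1.98 ± 0.17 and Clock by 0.32 ± 0.04, against 0.56 ± 0.18 for Nfil3. Arntl did not pass (0.01 ± 0.12, adjusted p = 0.979). Cry1, of the D-box list, was higher in BRE by 1.67 ± 0.15.

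Genes known as PAR bZIP targets in liver, kidney or brain were tested in 6 of 11 cases, and the other 5 did not pass the filter on low values (a mean of 1 RPKM on the log2 scale). Of these 6, 0 were rhythmic in EpiRE, 0 in BRE, 3 in RERE and 3 in WT, beside 0%, 1.14%, 19.4% and 33.1% of all genes in these genotypes, against which these counts are read. Pdxk, the pyridoxal kinase that activates vitamin B6, had an amplitude of 0.09 ± 0.07 in EpiRE, 0.22 ± 0.07 in BRE, 0.75 ± 0.05 in RERE (adjusted p = 6.16e-10) and 0.71 ± 0.08 in WT (adjusted p = 1.26e-06). It peaked at CT 14.0 in RERE and CT 13.9 in WT, after Dbp, Tef and Hlf. Cyp2b10, a drug-metabolising cytochrome, had 0.32 ± 0.05 in RERE and 0.28 ± 0.06 in WT, and the thioesterase Acot1 had 0.24 ± 0.06 in RERE and 0.30 ± 0.07 in WT. The rhythm of Pdxk was smaller in EpiRE than in WT by 0.62 (difference -0.62, adjusted p = 0.000294). It was also smaller in BRE than in WT (-0.49, adjusted p = 2.83e-05), and no other target passed in these contrasts. Alas1 (adjusted p = 0.0529 in RERE and 0.225 in WT), Por and Ppara were not called in any genotype.

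C/EBP relatives, other leucine zipper factors of which some bind elements like the D-box, were called in 0 of 5 in EpiRE, BRE and RERE and in 2 of 5 in WT, where 33.1% of all genes were called (0% in EpiRE, 1.14% in BRE and 19.4% in RERE). These were Cebpb (0.30 ± 0.09, adjusted p = 0.0258) and Cebpg (0.10 ± 0.03, adjusted p = 0.027). None of the 5 was called for a difference in rhythm in any of the 6 contrasts. Their median amplitude, 0.0697 in EpiRE, 0.0536 in BRE, 0.0991 in RERE and 0.101 in WT, lay close to that of all genes, at 0.074, 0.0717, 0.0991 and 0.119. In level, 4 of 5 were called lower in BRE than in WT (median -0.274, all genes -0.0455), where 24.4% of genes were lower. Against BRE, 3 of 5 were higher in RERE (17.4% of genes) and 3 of 5 in EpiRE (22.9%).

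Among 11024 genes, those whose 24 group means were most like a member were ranked by Pearson's r, as a description. The names depend on the measure: by Spearman's rho 2, 2, 1 and 2 of the 5 genes of Dbp, Tef, Hlf and Nfil3 were again among the first 5. For Dbp these were Ciart, a repressor of BMAL1 and CLOCK (r = 0.954), the cell cycle gene Ccnd2 (0.953), the chromatin remodeller Ino80 (0.922), Nptn (0.92) and 9330179D12Rik (0.919). Ccnd2 had an amplitude of 0.82 ± 0.08 in RERE and 0.81 ± 0.07 in WT, and peaked at CT 9.94 in RERE and CT 9.09 in WT. For Tef they were Ankrd12, the corepressor gene Rere and Per3 (0.919 each), Gpam (0.912), an enzyme of glycerolipid synthesis, and Ltbp4 (0.91), which binds latent TGF-beta. For Hlf they were Pfkfb2 (0.919), a regulator of glycolysis, Ltbp4 (0.908), Rif1 (0.906), Ddb2 (0.901), which recognises UV damage in DNA, and Zmym5 (0.896).

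For Nfil3 the most alike were Rnf19b (r = 0.91), Wsb1 (0.877), Osgin1 (0.874), Crat (0.856), a carnitine acetyltransferase, and Nectin2 (0.854). Osgin1 had an amplitude of 0.59 ± 0.17 in EpiRE, 0.11 ± 0.11 in BRE, 0.78 ± 0.14 in RERE and 0.75 ± 0.18 in WT, and its level was higher in BRE than in WT by 1.43 ± 0.17. Over the same 24 means the members correlated with each other at 0.922 (Dbp and Tef), 0.944 (Tef and Hlf) and 0.823 (Dbp and Hlf), and Nfil3 at -0.777 with Dbp, -0.807 with Tef and -0.806 with Hlf. These means share depth and scaling by library, and 12 of the 24 come from genotypes in which no member was called.

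The authors' deposited tables of 2 rhythm programs gave their own verdicts on the members. In the authors' deposited table of JTK_CYCLE the q-value was under 0.05 for all 4 members in RERE and for Tef (2.01e-07), Hlf (1.68e-05) and Dbp (3.46e-05) in WT, with Nfil3 at 0.105 in WT. In the authors' deposited table of BIOCYCLE the q-value was under 0.05 for Dbp alone in RERE (0.0366), with Tef at 0.0569, Nfil3 at 0.168 and Hlf at 0.232, and for Dbp, Tef and Hlf in WT, with Nfil3 at 0.0831. Neither program's deposited table called a member in EpiRE or BRE.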

How the data were processed

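Per the submitters' processing notes, the authors trimmed reads (Trimmomatic 0.36), aligned them to mm10 (HISAT2 2.2.1, with SAMtools 1.3.1) and counted them (featureCounts 1.6.0), and edgeR is named. Use of molecular identifiers or strand in counting is not stated. The deposited values were log2 RPKM per library, named by CT and replicate per the file headers. A further 96 columns whose codes match no label were not used. The digit leading these codes follows the CT order for RERE and WT but not for EpiRE and BRE, and its meaning is not given. The deposited p-values and q-values of JTK_CYCLE and BIOCYCLE, and their deposited scores (period, lag, amplitude), were read as the authors gave them.

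Reads were recovered from the log2 steps: 99.96% of values lay within 0.1 read of a whole number, and lengths of 20 genes were fitted to library totals. They served for depth and limma-voom. Counting precision follows from 47 to 10112 reads of a member per library. Intervals cover animals, not counting alone.

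Tests were made with limma 3.58.1 in R 4.3.3 on log2 RPKM, for genes with a mean of at least 0: a 24 h cosine and sine within 24 libraries of a genotype, their interaction with genotype in 48 libraries, level beside CT as a factor, and group contrasts in 96 libraries. Benjamini-Hochberg adjustment ran over all genes tested, with a threshold of 0.05. An amplitude is the fitted height above the mean, and an amplitude above 0 is fitted to flat genes too. Spread and coupling used permutation tests with 100000 resamples in Python 3.11.15 with scipy 1.17.1. The limma steps were checked on simulated data. Named genes are the 4 members, the 5 genes with the highest Pearson r over 24 group means for each, and the genes of each list that passed with the 4 largest amplitudes. Other list genes given with values were chosen after their values were seen. Members and lists were chosen with earlier results of these data known. Same-numbered libraries of different groups hardly varied together (mean correlation of deviations 0.0042, against -0.0013 for other pairs). The main fits did not pair samples by number. Alternatives were another scaling, no filter, log2(RPKM + 1), leaving out replicates or libraries, a replicate block, CT as a factor, fits on other sets of libraries and limma-voom. One list of clock genes is not reported here.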

Additional observations from a re-analysis of the deposited data

Results flagged for a closer look

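In 4 of 96 groups of 4 libraries, a library lay far from the other 3. Chance alone flags about 1 in 20 such groups. Dbp in EpiRE CT0 replicate 3 stood at 1.34 log2 RPKM, with the others between 4.13 and 4.51. Dbp in RERE CT12 replicate 3 stood at 6.59, with the others between 5.86 and 5.95. Tef in BRE CT0 replicate 3 stood at 4.21 beside 3 libraries at 4.26, a gap of 0.05. Hlf in EpiRE CT16 replicate 1 stood at 5.08, with the others between 5.30 and 5.34.

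The daily rhythm differed between genotypes by the interaction test for 3 members. The amplitude of Dbp differed by -2.17 for EpiRE minus WT, -2.71 for BRE minus WT, 2.14 for RERE minus EpiRE and 2.69 for RERE minus BRE. That of Tef differed by -1.14, -1.39, 1.13 and 1.38 in the same contrasts. That of Hlf differed by -0.37 for EpiRE minus WT, -0.42 for BRE minus WT and 0.42 for RERE minus BRE.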

How the results depend on the processing

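Counts of called members were the same, or within 1.5 times, under most alternatives, with these exceptions. The level of EpiRE against WT had 1 member called (Hlf) with limma-voom and 1 without the libraries that stood apart, a choice made after seeing the data, against 0. At single CT, EpiRE against WT had 1 call when 2 genotypes were fitted alone and 2 without those libraries, against 5. With the deposited BIOCYCLE q-values 1 member was rhythmic in RERE, against 4. With the SD pooled over CT, the spread had 1 call in BRE against WT and 2 in RERE against BRE, where there were none. Relative to the library median, coupling had 1 call in RERE and 1 in WT, against 3 and 2. The cause of these changes was not tested.

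Leaving out 1 replicate number at a time (fewer samples) gave 0 to 2 members with differential rhythm in RERE against EpiRE, 0 to 4 calls at single CT in EpiRE, 7 to 11 in BRE and 0 to 2 in RERE, 0 calls of spread in EpiRE against BRE, and 1 to 2 coupled pairs in EpiRE, 0 to 3 in BRE, 1 to 2 in RERE and 0 to 2 in WT.

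Signs turned only for differences that were not called. For RERE against WT the amplitude difference of Dbp ran between -0.119 and 0.047 without a replicate, and was 0.029 with limma-voom and 0.311 with CT as a factor. That of Tef ran between -0.078 and 0.075, and was 0.001 with median-of-ratios scaling and 0.005 with limma-voom. That of Hlf ran between -0.11 and 0.086, and was -0.016 with CT as a factor and -0.028 without the libraries that stood apart. The amplitude difference of Nfil3 in EpiRE against WT was 0.01 with CT as a factor. The level difference of Dbp was -0.406 in EpiRE against WT and 0.203 in RERE against EpiRE with limma-voom. That of Nfil3 in EpiRE against WT ran between -0.186 and 0.26 and was -0.069 without the libraries that stood apart, and that of Tef in RERE against WT ran between -0.018 and 0.043.

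Replicate numbers do not pair the samples: 32 of 96 libraries correlated best with their own number. With a replicate block, the counts of called members were unchanged, with 4 rhythmic in RERE, 4 in WT and 0 in EpiRE and BRE. Over all genes, rhythmic genes numbered 0 to 199 in EpiRE, 0 to 348 in BRE, 875 to 2409 in RERE and 2019 to 4087 in WT over the alternatives, and differential rhythm 37 to 434 in EpiRE and 285 to 698 in BRE against WT. Reads per library numbered 49 to 1210 for Nfil3 and 72 to 164 for Dbp in BRE, which limits the precision of these values.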

Other observations

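The low Dbp library of EpiRE CT0 had 2.53 RPKM of Dbp, inside the 1.98 to 3.07 RPKM of the WT libraries of that time, while the other 3 libraries of its group had 17.6 to 22.8 RPKM. Its Nfil3 stood at 4.58 log2 RPKM and it gave the lowest Dbp relative to Nfil3 of the EpiRE libraries (-3.24). This library is not among those that stood apart over all genes. It was singled out after its values were seen.

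Nfil3 was high in the 3 libraries that did stand apart, at 4.85 in EpiRE CT0 replicate 1, 4.81 in EpiRE CT8 replicate 1 and 4.64 in RERE CT0 replicate 2. The first of these holds the highest Nfil3 of the 24 EpiRE libraries. The other libraries of their groups stood at 3.84, 4.58 and 2.89 in EpiRE CT0, at 4.76, 3.44 and 3.7 in EpiRE CT8, and at 4.97, 3.65 and 3.31 in RERE CT0. CT0 is also near the WT peak of Nfil3. Without the 3 libraries that stood apart the amplitude of Nfil3 was still not called in EpiRE. Whether what sets these libraries apart also raised Nfil3 was not tested.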
